A study of Mus musculus with 66 samples.

Results

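The 3 sensors of stress in the endoplasmic reticulum (ER), *Atf6*, *Ern1* and *Eif2ak3*, the transcription factors *Xbp1*, *Atf4* and *Ddit3*, and 4 genes that ATF4 drives, *Trib3*, *Asns*, *Chac1* and *Sesn2*, were followed through every library of a series on spontaneous *Rorb* mutant mice. These 10 genes were chosen by name from the unfolded protein response (UPR), out of 45706 gene identifiers, and each was found once in the files. RNA was sequenced from brain hemi-sections and spinal cords (48 libraries) and from dissected cortex, hippocampus and cerebellum (18 libraries). *Rorb* encodes the nuclear receptor RORβ, and all mutants are homozygous for a spontaneous allele.

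*Rorb h1/h1* mice (3 mice) are on C57BL/6J and carry a large duplication. It takes in the first exon of the Rorb1 isoform of *Rorb* and non-coding sequence upstream. The h2 and h3 alleles (4 homozygous mice each) arose on an albino B6 stock, B6(Cg)-Tyr c-2J/J, and the change in each is not known. *Rorb h4/h4* mice (4) carry a premature stop in *Rorb* and arose on B6.129S7-Il1r1 tm1Imx/J, a stock that also lacks the interleukin 1 receptor. *Rorb h5/h5* mice (3) lack the start codon of the Rorb1 isoform and are on DBA/1J. The first 4 mutants were compared with the same 3 C57BL/6J mice, which carry neither the albino nor the *Il1r1* allele, and *Rorb h5/h5* was compared with 3 DBA/1J mice. Brain and spinal cord of one number come from one animal, aged 7.9 to 9.6 weeks, and the 3 regions come from other *Rorb h5/h5* and DBA/1J mice of 7 weeks (3 and 3).

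Proteins that misfold in the ER are sensed by 3 membrane proteins. ATF6 is cut in the Golgi to release a transcription factor, IRE1 (*Ern1*) splices the *Xbp1* message so that it encodes the active factor XBP1s, and PERK (*Eif2ak3*) phosphorylates the initiation factor eIF2. Phosphorylated eIF2 slows most translation while favouring that of ATF4, which raises genes of amino acid supply and, with CHOP (*Ddit3*), of cell death. Counts per gene see neither the splicing of *Xbp1* nor the translation of *Atf4*, so that the values below are transcript levels and not the activity of a branch.

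Libraries held 32889755 to 59120536 counts (median 42391892). *Rorb* itself stood at 10.4 to 14.8 CPM (counts scaled to library size) in *Rorb h4/h4* brain against 50.9 to 61 CPM in C57BL/6J, and at 34.6 to 37.1 CPM with the h1 and 27.3 to 30.9 CPM with the h2 allele. In *Rorb h3/h3* brain (50.6 to 54.8 CPM) it overlapped the controls, and in *Rorb h5/h5* cortex (144 to 155 CPM) it lay above DBA/1J (80.9 to 107 CPM). One *Rorb h5/h5* animal of the region set, labelled female, had 58.2 to 86.2 CPM of the Y-linked *Ddx3y* in its 3 libraries and at most 0.32 CPM of *Xist*. With or without that animal no member was called in the 3 regions. In bulk tissue, fewer cells of a type and less RNA per cell cannot be told apart.

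The stretches of DNA before *Xbp1*, *Chac1* and *Asns* are shown first, because *Xbp1* was the member that differed in the mutants and *Chac1* the one that differed most between the strains, while *Asns* is a target of ATF4 that did neither. Hspa5 is added because it varied with *Xbp1* across libraries. Each line gives the 250 bases before the gene's start from RefSeq (build GRCm38.p6), 5′ to 3′ on the gene's strand. They lie at chr11:5520391-5520640 (+ strand) for *Xbp1*, chr2:119350992-119351241 (+) for *Chac1*, chr6:7693210-7693459 (-) for *Asns* and chr2:34771840-34772089 (+) for *Hspa5*. Capitals mark matches to 4 motifs on either strand, the amino acid response motif TGATGNAA and the related TGACGCAA of ATF4, the UPR element TGACGTGG of XBP1 and the ER stress element of ATF6, which is CCAAT followed by CCACG after 9 bases of any kind.
Xbp1: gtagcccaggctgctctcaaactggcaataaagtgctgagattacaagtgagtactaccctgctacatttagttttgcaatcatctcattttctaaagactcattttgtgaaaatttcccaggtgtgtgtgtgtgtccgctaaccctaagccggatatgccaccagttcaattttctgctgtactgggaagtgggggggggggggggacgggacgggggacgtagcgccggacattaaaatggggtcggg
Chac1: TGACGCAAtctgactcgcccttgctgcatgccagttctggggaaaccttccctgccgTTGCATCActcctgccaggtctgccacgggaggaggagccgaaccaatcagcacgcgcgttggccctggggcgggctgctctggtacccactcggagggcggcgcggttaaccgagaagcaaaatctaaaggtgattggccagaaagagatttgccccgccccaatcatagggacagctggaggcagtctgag
Asns: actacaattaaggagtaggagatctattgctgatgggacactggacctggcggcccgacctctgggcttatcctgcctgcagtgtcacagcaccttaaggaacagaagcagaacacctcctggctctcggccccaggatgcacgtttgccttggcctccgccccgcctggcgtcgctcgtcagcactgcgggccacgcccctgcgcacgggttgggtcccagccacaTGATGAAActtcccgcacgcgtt
Hspa5: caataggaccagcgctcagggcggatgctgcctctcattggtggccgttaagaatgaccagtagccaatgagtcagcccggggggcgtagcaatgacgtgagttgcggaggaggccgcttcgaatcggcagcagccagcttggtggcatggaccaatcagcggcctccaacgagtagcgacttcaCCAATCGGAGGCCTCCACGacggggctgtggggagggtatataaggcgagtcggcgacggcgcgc

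Of the 9 members with an entry, 2 held TGATGNAA, *Asns* 23 bases before its start and *Chac1* 193 bases before it on the other strand. *Chac1* also held TGACGCAA, 250 bases before its start. None of the 9 held TGACGTGG or the ER stress element. Among all 32851 windows of this length, 3.45% held TGATGNAA, 0.438% TGACGCAA, 0.563% TGACGTGG and 0.113% the ER stress element. Of 11 ER chaperones and folding enzymes described below, 9 had an entry and 5 of these (*Hspa5*, *Hsp90b1*, *Calr*, *Pdia6* and *Creld2*) held the ER stress element. A match describes the letters of the window and not a bound site.

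*Xbp1* (chr11:5520641-5525993) was lower in the 4 mutants of C57BL/6J type than in C57BL/6J. In brain hemi-sections it stood at 80.8, 71.8 and 81.1 CPM in C57BL/6J mice. *Rorb h1/h1* brains stood at 58.9, 59.4 and 63.6 CPM, *Rorb h2/h2* at 65.6, 63.6, 65.8 and 60.2, *Rorb h3/h3* at 55.7, 53.4, 58.9 and 57.6 and *Rorb h4/h4* at 57.5, 56.7, 64.7 and 59.8. All 15 mutant libraries lay below all 3 control libraries. The genes whose 15 mutant libraries lay below the 3 controls in brain made up 0.633% of those tested, and 2 of the 10 members, *Xbp1* and *Atf4*, were among them.

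By edgeR's quasi-likelihood test, with p-values adjusted over all genes tested, *Xbp1* fell by 0.46 on the log2 scale (SE 0.05, adjusted p = 0.0081) in *Rorb h3/h3* brain and by 0.39 (SE 0.06, adjusted p = 0.012) in *Rorb h4/h4* brain. In these comparisons 0.164% and 0.703% of all genes were called at an adjusted p under 0.05, and *Xbp1* was the 1 member called in each. With any 1 mouse left out, the 29 and 125 genes behind these shares became 7 to 29 and 53 to 182. The *Rorb h4/h4* call was lost without C57BL/6J replicate 1 (-0.36, adjusted p = 0.056, edgeR). In *Rorb h1/h1* brain its log2 fold change was -0.36 (SE 0.06, adjusted p = 0.4 by edgeR, where 0% of genes were called) and in *Rorb h2/h2* brain -0.29 (SE 0.06, adjusted p = 0.11 by edgeR, where 0.136% were, 24 genes that became 2 to 22 with 1 mouse left out). No member was called by edgeR in these last 2 comparisons, in which 2 and 3 members had an unadjusted p under 0.05, while DESeq2 called 1 member in each, *Xbp1* (adjusted p = 0.0025 and 0.0034). The shares of all genes given here are those of edgeR, and are no background for the DESeq2 calls. The animal identifiers of *Rorb h1/h1* and C57BL/6J mice come from one series, and those of the other 3 mutants do not, so that for these stock, identifier series and allele cannot be told apart.

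**Figure D1:**
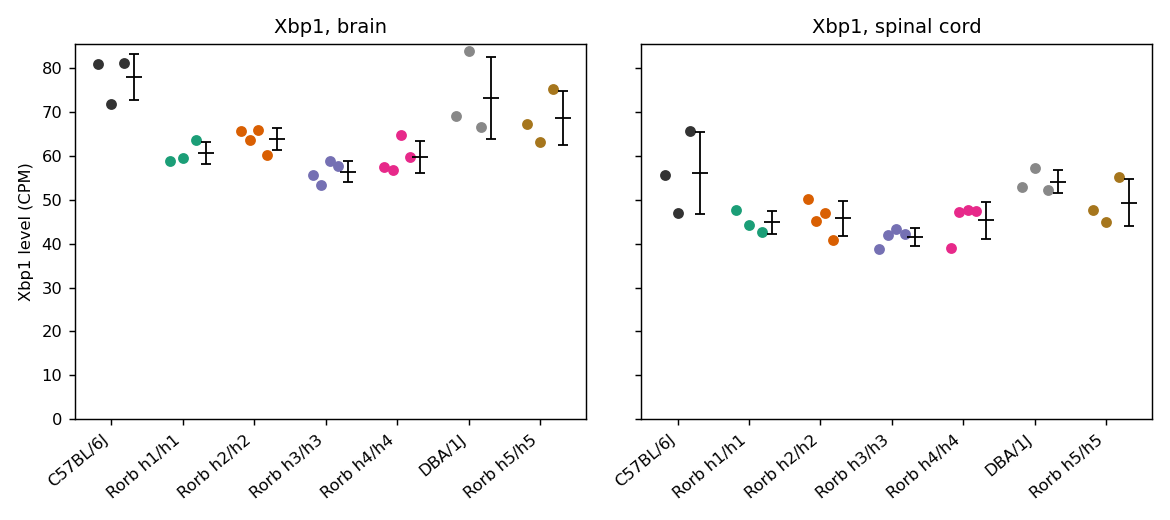
Level of Xbp1 in CPM (linear axis from 0) in each brain hemi-section (left) and spinal cord (right), by genotype. Points are libraries, and the bar beside them is the mean ± SD. In brain the 15 libraries of Rorb h1/h1 to h4/h4 mice lie below the 3 C57BL/6J libraries, and DBA/1J and Rorb h5/h5 libraries overlap.

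The mean of the 4 mutants was tested in one fit against C57BL/6J. In brain, *Xbp1* was 22.9% lower (log2 fold change -0.38, SE 0.04, adjusted p = 9.3e-05, edgeR), in a comparison where 0.547% of genes were called, and no other member was called by edgeR. The call held in all 23 alternatives, with an adjusted p from 2.3e-11 to 0.0046.

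In spinal cord *Xbp1* showed a difference of like size. Control libraries stood at 55.7, 47 and 65.7 CPM and spread more widely than in brain. *Rorb h1/h1* cords stood at 47.6, 44.2 and 42.6 CPM, *Rorb h2/h2* at 50.2, 45.1, 46.9 and 40.8, *Rorb h3/h3* at 38.7, 41.9, 43.3 and 42.2 and *Rorb h4/h4* at 38.9, 47.2, 47.7 and 47.3. Of the 15 mutant libraries 10 lay below every control, and the groups overlapped. No member had all of its 15 mutant cords below the controls, against 0.742% of genes.

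The mean contrast in cord gave a log2 fold change of -0.34 for *Xbp1* (SE 0.07, adjusted p = 0.013, edgeR), where 1.53% of genes were called and *Xbp1* was the 1 member called. This call rests on the controls. Without C57BL/6J replicate 1 the edgeR adjusted p was 0.096, and without replicate 3, the highest control, the log2 fold change was -0.21 with an adjusted p of 0.2. The count of all genes called in this contrast moved as well, from 278 with all mice to between 66 (without C57BL/6J replicate 1) and 451 (without *Rorb h3/h3* replicate 1), and in brain from 101 to between 37 and 99. An exact two-sided permutation test of the 15 mutant against the 3 control cords gave p = 0.00735 for *Xbp1*. For the other members in cord its p ran from 0.124 to 0.944. In brain it gave 0.00123, the smallest p possible, for *Xbp1* and *Atf4*, 0.0343 for *Chac1* and 0.0576 to 0.739 for the others. This test takes the 4 mutants as 1 group, and its p is not adjusted.

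Mutant by mutant, *Xbp1* was called in *Rorb h3/h3* cord (log2 fold change -0.44, SE 0.09, adjusted p = 0.031, edgeR), where 1.01% of genes were called. That call was lost without C57BL/6J replicate 1 or 3 or without *Rorb h3/h3* replicate 2, 3 or 4, with an edgeR adjusted p from 0.052 to 0.14. The log2 fold changes were -0.33 for *Rorb h1/h1* (adjusted p = 0.12), -0.30 (0.083) for the h2 allele and -0.31 (0.11 by edgeR) for the h4 allele, with 0.289%, 2.09% and 1.75% of genes called. These shares rest on single mice too, since without C57BL/6J replicate 1 the 50, 365 and 305 genes called fell to 0, 132 and 90, and the 176 of *Rorb h3/h3* cord to 34. No member was called in these 3 by edgeR or DESeq2, and 1 member in each had an unadjusted p under 0.05. Without C57BL/6J replicate 2, the lowest control, *Xbp1* was called in all 3 (edgeR adjusted p = 0.0057, 0.013 and 0.026).

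*Rorb h5/h5* mice, compared with DBA/1J, gave smaller values for *Xbp1* and none was called. In brain hemi-sections *Rorb h5/h5* stood at 67.3, 63.2 and 75.2 CPM and DBA/1J at 69, 83.9 and 66.5 CPM. The log2 fold change was -0.09 in brain, -0.13 in cord, -0.15 in cortex, -0.02 in hippocampus and -0.27 (SE 0.17) in cerebellum. In cerebellum the summed choroid plexus markers stood at 7.26 to 1016 CPM in *Rorb h5/h5* and at 1337 to 1830 CPM in DBA/1J, without overlap, and their part in this value was not tested. No member was called by edgeR or DESeq2 in any of the 5 tissues. In brain, cord and cortex 1 member each had an unadjusted p under 0.05 and in hippocampus and cerebellum 0 had, while edgeR called 0%, 0.00581%, 0%, 0.0118% and 0.012% of all genes, in the order of tissues given above. The 0% in cortex rests on 1 mouse, since without DBA/1J replicate 3 edgeR called 221 genes there. Whether the *Rorb h5/h5* effect differs from those of the other mutants was not tested, since strain and controls differ as well.

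For each mutant, the difference of its effect between cord and brain was tested as an interaction. For *Xbp1* it was between -0.03 (*Rorb h5/h5*) and 0.08 (*Rorb h4/h4*) on the log2 scale, with an SE of 0.11 to 0.14. No member passed in any of these by edgeR or DESeq2, with 1, 1, 0, 2 and 0 members at an unadjusted p under 0.05. By edgeR 0% of all genes passed in 4 of these tests and 0.0054% (1 gene) in that of *Rorb h4/h4*, which became 57 genes without C57BL/6J replicate 3. DESeq2 called 0, 5, 3, 83 and 2 genes for the h1 to h5 alleles. *Rorb h4/h4* against *Rorb h3/h3* likewise called no member in brain or cord by edgeR or DESeq2, and 0 had an unadjusted p under 0.05, where 0.131% and 1.28% of genes were called. *Xbp1* differed there by 0.08 and 0.13.

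**Figure D2:**
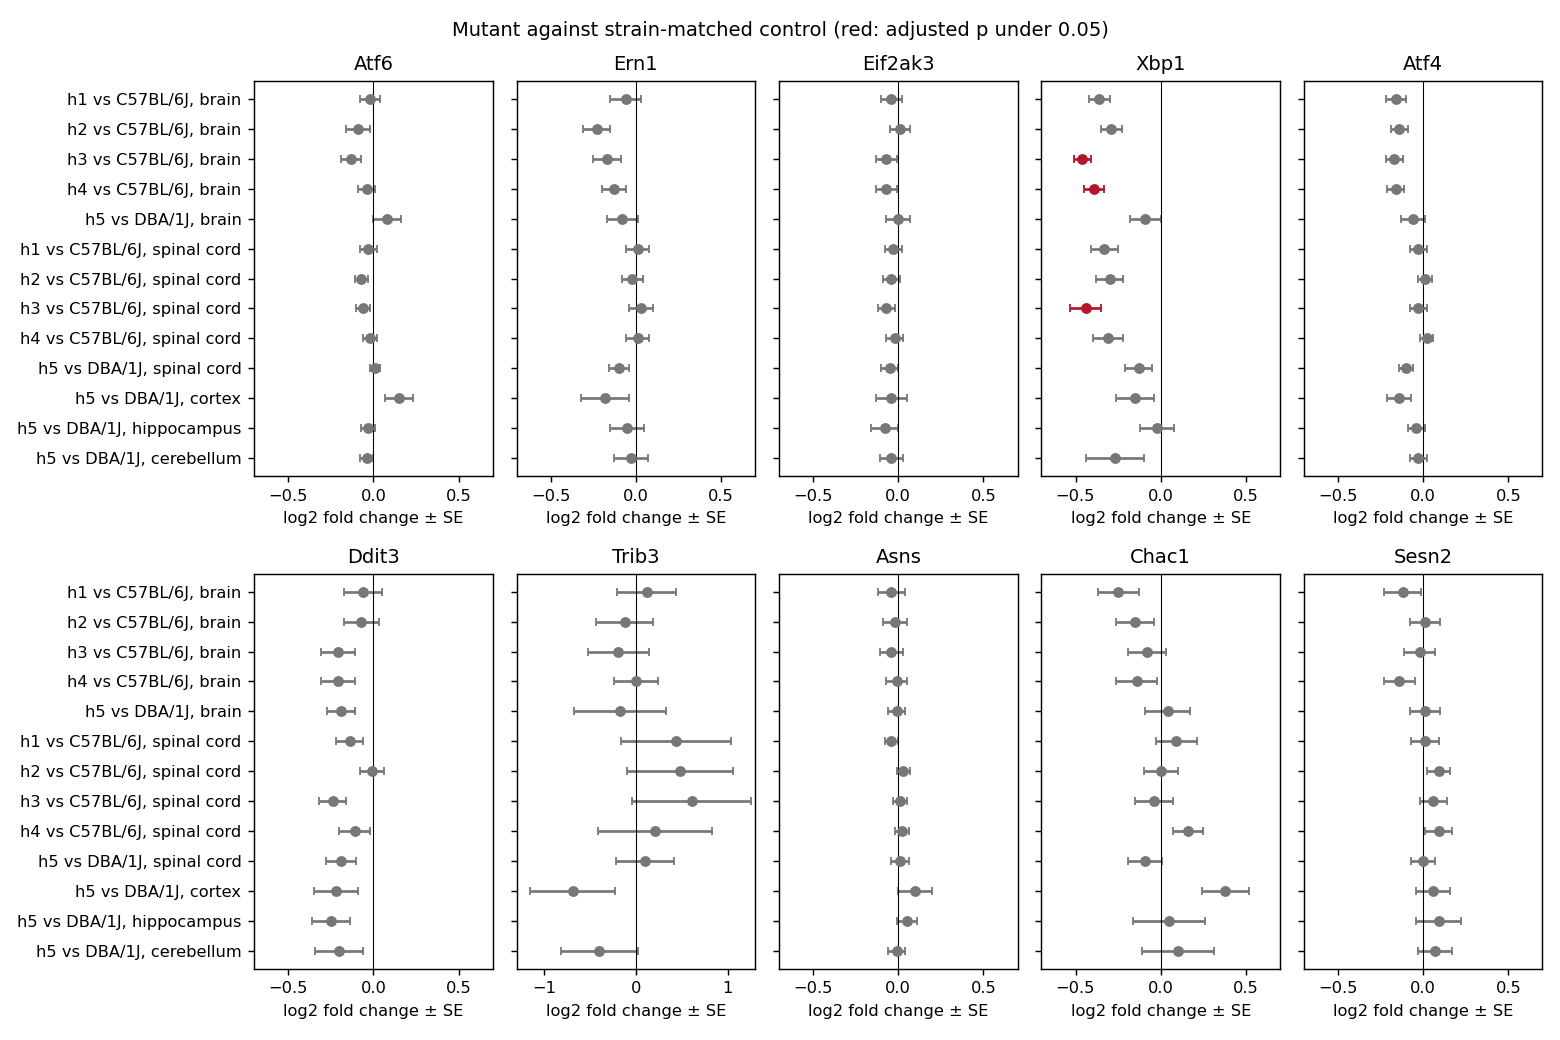
Log2 fold change ± SE (edgeR) of each of the 10 members in 13 comparisons of a mutant with its strain-matched control. Red points have an adjusted p under 0.05 over all genes. Xbp1 lies left of 0 in all 13 comparisons and is red in 3, and the other panels hold no red point. The axis of Trib3 is wider than the others.

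Other genes of the ER fell with *Xbp1*. All 11 genes of a list of ER chaperones and folding enzymes were called lower in the mean of the 4 mutants, in brain (median log2 fold change -0.47) and in cord (-0.34), beside a median of 0.00 over all genes tested in each and 0.547% and 1.53% of all genes called. The list was drawn up with the UPR result of these samples known and is not independent evidence of a direction. Without C57BL/6J replicate 3, edgeR called 10 of the 11 in brain and 5 in cord, the lowest counts with any single mouse left out, and 7 in cord without replicate 1. In brain the 3 with the smallest p were *Sdf2l1* (log2 fold change -0.84, SE 0.09), *Dnajb11* (-0.40, SE 0.05) and *Pdia6* (-0.47, SE 0.06), with edgeR adjusted p of 6.5e-05, 9.3e-05 and 9.3e-05. In cord they were *Hspa5*, the chaperone BiP that holds the sensors inactive (-0.53, SE 0.06), *Manf* (-0.44) and *Pdia6* (-0.34), with edgeR adjusted p of 7.6e-05, 1.2e-04 and 1.2e-04. Mutant by mutant, edgeR called 0, 2, 10 and 10 of the 11 lower in brain and 1, 7, 10 and 10 in cord for the h1, h2, h3 and h4 alleles, with all 11 fold changes negative in each. In *Rorb h5/h5* none of the 11 was called by edgeR or DESeq2 in any of 5 tissues, with 0 to 3 at an unadjusted p under 0.05, and their medians ran from -0.26 in cerebellum to -0.05 in hippocampus.

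Most of the genes most like *Xbp1* within groups were on the same list. Each library's log2 CPM was taken as its distance from its group's mean, so that differences between genotypes and tissues do not enter. Over the 66 libraries and among 14799 genes, Pearson's r with *Xbp1* was highest for *Hspa5* (0.88), *Hyou1* (0.83) and *Manf* (0.83). By Spearman's rho the leading genes were *Hspa5* (0.86), *Pdia4* (0.82) and *Mlec* (0.81), a lectin of the ER that is not on the list, and over brain and cord libraries alone r with *Hspa5* was 0.78. Within single tissues r with *Hspa5* ran from 0.76 in cord (24 libraries) and 0.85 in brain (24) to 0.95 to 0.97 in the 3 regions (6 each). These values describe libraries that share animals, and carry no p. The members themselves were less alike, with *Ddit3* and *Xbp1* at 0.57 and *Eif2ak3* and *Xbp1* at 0.41 the only pairs above 0.4.

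**Figure D3:**
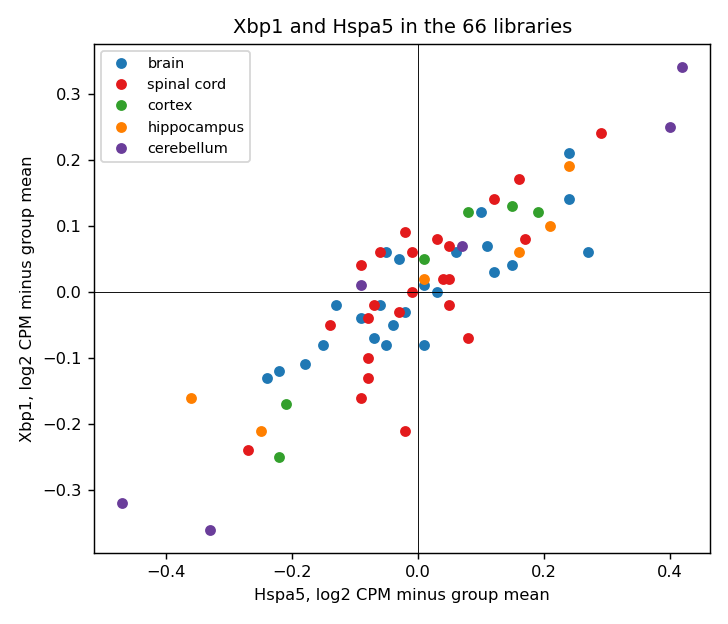
Distance of each of the 66 libraries from its group's mean (log2 CPM) for Hspa5 (horizontal) and Xbp1 (vertical), coloured by tissue. The points run along a rising line in every tissue, with r from 0.76 in spinal cord to 0.97 in cortex and cerebellum.

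Genes outside the UPR were set beside *Xbp1*. Among 6 genes induced by glucocorticoids, *Cdkn1a* was called lower in the mean of the 4 mutants in brain (log2 fold change -0.66, adjusted p = 6.9e-04, edgeR), and *Cdkn1a* (-0.42) and *Tsc22d3* (-0.24) were in cord (edgeR adjusted p = 0.0013 and 0.002). *Tsc22d3* was lost in cord without C57BL/6J replicate 3 (-0.18, adjusted p = 0.061, edgeR), and passed in brain without C57BL/6J replicate 2 or *Rorb h3/h3* replicate 2 or 4 (adjusted p from 0.028 to 0.035). The summed level of the 6 genes was 249 to 280.3 CPM in C57BL/6J brain, and 221 to 247, 227 to 272, 199 to 289 and 194 to 252 CPM in *Rorb h1/h1* to *h4/h4*. In cord it was 293 to 357 CPM in C57BL/6J, and 264 to 308, 243 to 280.1, 219 to 345 and 226 to 258 CPM in the same order. *Rorb h1/h1* brains and the cords with the h2 and h4 alleles lay below the controls, and the other groups overlapped them. None of 7 immediate early genes was called by edgeR in either tissue (1 in each at an unadjusted p under 0.05, and 0 in brain and 1 in cord by DESeq2), and all 7 fold changes in brain were negative. Their summed level in *Rorb h1/h1* mice lay below C57BL/6J in brain (144 to 260 against 292 to 392 CPM) and in cord (54.2 to 58.3 against 65.3 to 73.1 CPM). With the h2, h3 and h4 alleles it overlapped the controls in both tissues. Of 47 markers of 9 cell types, 0 were called by edgeR in the mean contrast in brain (6 at an unadjusted p under 0.05, and 1 by DESeq2) and 1 of 45 tested, *Gad1* of inhibitory neurons, was lower in cord, where 17 had an unadjusted p under 0.05. *Gad1* was lost without C57BL/6J replicate 1 or 3 (-0.11 and -0.13, adjusted p = 0.21 and 0.094, edgeR), and all 7 neuron markers had negative fold changes in cord (median -0.08). Mutant by mutant, 8 of 45 markers were called in cord for the h2 allele (2 higher and 6 lower) and 5 for the h4 allele (3 higher and 2 lower), beside the 2.09% and 1.75% of all genes given above, and 0 for the h1 and h3 alleles. In brain 2 were called for the h2 allele, 1 for the h3 allele and 0 for the other two. Choroid plexus, which is rich in secretory cells, gave a summed marker level of 359 to 511 CPM in C57BL/6J brain and of 223 to 458 CPM across the 4 mutants, and of 7.11 to 8.7 CPM in C57BL/6J cord, so that the groups overlapped in brain. The part of these in the *Xbp1* result was not tested.

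No sensor was called in the 13 comparisons of a mutant with its control. *Atf6* (chr1:170704457-170868585) stood at 92.5, 101 and 108 CPM in C57BL/6J brain and at 86.6 to 104 CPM in the 15 mutant brains, and its mean contrast was -0.07 (SE 0.05) in brain and -0.05 (SE 0.03) in cord. *Eif2ak3* (chr6:70844484-70905241) varied little, with 30.5 to 34.1 CPM in control and 29.5 to 33.9 in mutant brain, and mean contrasts of -0.04 (SE 0.04) in both tissues. *Ern1* (chr11:106397620-106487796) stood at 18.2, 16.5 and 16.6 CPM in C57BL/6J brain and at 13 to 17.6 CPM in the mutants. Its mean contrast in brain was -0.15 (SE 0.07, adjusted p = 0.44, edgeR) and in cord 0.01 (SE 0.05). The 4 *Rorb h2/h2* brains (14.9, 16, 13.2 and 14.2 CPM) lay below the 3 controls, as did the 4 *Rorb h4/h4* brains (15.9, 15.1, 15.3 and 16 CPM), and neither difference passed (-0.23 and -0.13, adjusted p = 0.52 and 0.43, edgeR). Both rest on the same 3 controls, and the share of all genes lying below them in this way was not counted.

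Among 15 tested partners and processing enzymes of the sensors, 0 were called in either mean contrast by edgeR or DESeq2, with 2 in each at an unadjusted p under 0.05. The 3 with the smallest p in brain were *Creb3l2*, *Wfs1* and *Sec61a1* (log2 fold changes -0.16, 0.12 and -0.07) and in cord *Creb3l1*, *Wfs1* and *Mbtps1* (0.47, -0.09 and 0.05), with edgeR adjusted p from 0.17 to 0.46. Of 24 genes of ER-associated degradation and translocation, 2 were called lower in brain (0 without C57BL/6J replicate 3, and 1 without C57BL/6J replicate 1 or 2 or *Rorb h1/h1* replicate 2) and 0 in cord by edgeR (4 at an unadjusted p under 0.05, and 2 by DESeq2), with a median of -0.04 in brain and -0.05 in cord, beside the same 0.547% and 1.53% of all genes. They were *Herpud1*, which recruits the degradation machinery (-0.20, SE 0.04, adjusted p = 0.01), and *Derl3*, a protein of the exit channel at a low level (0.418 ± 0.109 CPM in mutants and 0.928 ± 0.18 in controls, SD, n = 15 and 3, log2 fold change -1.15, adjusted p = 0.029, edgeR). *Sel1l* had -0.14 in brain and -0.10 in cord, *Dnajb9* -0.21 and *Herpud1* -0.13 in cord, and none of these passed in edgeR with all mice. With 1 mouse left out *Sel1l* passed in brain without C57BL/6J replicate 1 (-0.20, adjusted p = 0.043) and in cord without C57BL/6J replicate 2 (-0.14, adjusted p = 0.032, edgeR). *Dnajb9* passed in cord without *Rorb h3/h3* replicate 1 or *Rorb h4/h4* replicate 1 (-0.23 and -0.22, adjusted p = 0.016 and 0.04, edgeR).

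*Atf4* (chr15:80255184-80257545) was slightly lower in the brains of the 4 mutants, short of the threshold, and not in their cords. C57BL/6J brains stood at 97.8, 91.4 and 88.1 CPM. *Rorb h1/h1* brains stood at 82.9, 87.8 and 76.7 CPM, *Rorb h2/h2* at 85.5, 81.5, 87.3 and 82.3, *Rorb h3/h3* at 83.5, 77.4, 83 and 84.4 and *Rorb h4/h4* at 80.6, 85.2, 86.3 and 77.6. All 15 lay below the 3 controls, and the mean contrast was -0.16 (SE 0.04), which did not pass edgeR (adjusted p = 0.11) and passed DESeq2 (adjusted p = 0.037). In cord the contrast was -0.01 (SE 0.04), with 65.5 to 74.4 CPM in mutants and 66 to 73.6 in controls. The difference of the effect between cord and brain was not called in any mutant (0.19 in *Rorb h4/h4*, SE 0.07, adjusted p = 0.39, edgeR).

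*Ddit3* (chr10:127290793-127296291), which encodes CHOP, was not called in any of the 13 comparisons. Its log2 fold changes were -0.19, -0.19, -0.22, -0.25 and -0.20 in the brain, cord, cortex, hippocampus and cerebellum of *Rorb h5/h5* mice (adjusted p from 0.56 to 1, edgeR). In brain *Rorb h5/h5* stood at 12.2, 11.4 and 12.1 CPM, below DBA/1J at 14, 13.8 and 13.1, and in cord at 9.9, 9.55 and 11.1, below 12, 11.2 and 11.7. In the 3 regions the groups overlapped. How many of all genes lie apart in this way, with 3 mice on each side, was not counted. In *Rorb h3/h3* it was -0.21 in brain and -0.24 in cord (adjusted p = 0.51 and 0.17, edgeR).

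The 4 ATF4 targets were not called in any mutant. *Asns* (chr6:7675165-7693209), which makes asparagine, stayed within 69.5 to 86.6 CPM in all 18 brains of C57BL/6J and the 4 mutants, with mean contrasts of -0.03 (SE 0.05) and 0.01 (SE 0.03). *Sesn2* (chr4:132492804-132510456), an inhibitor of mTORC1, had -0.07 (SE 0.07) and 0.06 (SE 0.06). *Chac1* (chr2:119351242-119354326), which breaks down glutathione, had -0.16 (SE 0.08) in brain and 0.05 (SE 0.08) in cord. The *Rorb h1/h1* brains (3.6 to 3.73 CPM) and the *Rorb h2/h2* brains (3.72 to 4.13) lay below the 3 C57BL/6J brains (4.3 to 4.46), and the *Rorb h4/h4* cords (4.85 to 5.07) lay above the C57BL/6J cords (4.33 to 4.61). None of these passed (-0.25, -0.15 and 0.16, adjusted p = 1, 0.85 and 0.5, edgeR). In cortex of *Rorb h5/h5* mice *Chac1* stood at 3.52, 3.72 and 3.77 CPM, above DBA/1J at 2.78, 2.72 and 2.93, and did not pass (log2 fold change 0.38, SE 0.14, adjusted p = 0.76, edgeR). For these comparisons of *Chac1* the share of all genes whose groups lie apart was not counted. *Trib3* (chr2:152337425-152344060), a pseudokinase that restrains AKT and ATF4, had 1 to 39 counts per library (median 17), too few for its SE of 0.24 to 0.65 to show changes of the size seen for *Xbp1*. It was left out of the test in hippocampus by the low-count filter.

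Of 44 tested other genes of the ATF4 branch, edgeR called 0 in the brain mean contrast, where 36 had negative fold changes, 8 an unadjusted p under 0.05 and 1 passed DESeq2, and 1 in cord, where 1.53% of all genes were called, so that the count is near the background. The one was *Slc38a2*, an amino acid transporter, with 235 ± 20.6 CPM in mutants and 308 ± 12 in controls (SD, n = 15 and 3, log2 fold change -0.38, SE 0.04, adjusted p = 3.0e-05, edgeR). In brain its log2 fold change was -0.22 (adjusted p = 0.078, and 0.024 or 0.038 without C57BL/6J replicate 2 or *Rorb h4/h4* replicate 2), that of *Gpt2* -0.19 and that of *Slc7a11*, the cystine transporter, 0.24 (adjusted p = 0.15 and 0.19, edgeR). In cord *Gpt2* had -0.13 and *Psat1*, of serine synthesis, -0.06 (adjusted p = 0.1 and 0.13). The median of the list was -0.05 in brain and -0.01 in cord, beside 0.00 over all genes.

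Among 15 kinases, phosphatases and subunits that act on eIF2, *Dnajc3* was called lower in both tissues, the 1 call in brain and 1 of 2 in cord, beside 0.547% and 1.53% of all genes. It encodes p58IPK, an inhibitor of PERK and itself an ER co-chaperone, and had log2 fold changes of -0.28 (SE 0.05, adjusted p = 0.018) in brain and -0.26 (SE 0.03, adjusted p = 6.1e-05, edgeR) in cord. *Ppp1cc*, a catalytic subunit of the phosphatase that acts on eIF2, was lower in cord (-0.15, adjusted p = 0.01, edgeR). Without C57BL/6J replicate 1 or 3, *Dnajc3* was lost in brain (-0.30 and -0.19, adjusted p = 0.079 and 0.24) and *Ppp1cc* in cord (-0.16 and -0.11, adjusted p = 0.08 and 0.15, edgeR). *Eif2ak2* had 0.17 and 0.20 and *Eif2s1* -0.10 in brain, and neither passed (adjusted p from 0.14 to 0.43, edgeR).

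Per length, the members lie far apart. In C57BL/6J brain the means in TPM (scaled for transcript length and library size) ran from *Atf4* (118) over *Asns* (87.3), *Xbp1* (81.8), *Ddit3* (34.6), *Atf6* (27.2), *Eif2ak3* (15.7), *Sesn2* (7.85), *Chac1* (5.9) and *Ern1* (5.2) to *Trib3* (0.853). The ranges of *Asns* (76.7 to 101 TPM) and *Xbp1* (78.8 to 84.7) overlapped, as did those of *Chac1* (5.52 to 6.2) and *Ern1* (4.9 to 5.55), and the other neighbours did not. Over the 20 groups, members were ranked by the ratio of the highest to the lowest group mean in TPM. *Xbp1* (3.17) came after *Trib3* (4.69) and *Chac1* (3.86), from 42.9 TPM in *Rorb h3/h3* cord to 136 in DBA/1J cerebellum. *Asns* had the smallest ratio (1.26), from 69.3 TPM in *Rorb h5/h5* cerebellum to 87.6 in *Rorb h5/h5* cortex. The cerebellum of DBA/1J had the highest mean TPM of *Ern1* (8.56), *Eif2ak3* (26.2), *Xbp1* (136), *Atf4* (122) and *Ddit3* (52.1), and the lowest of *Chac1* (2.92).

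**Figure D4:**
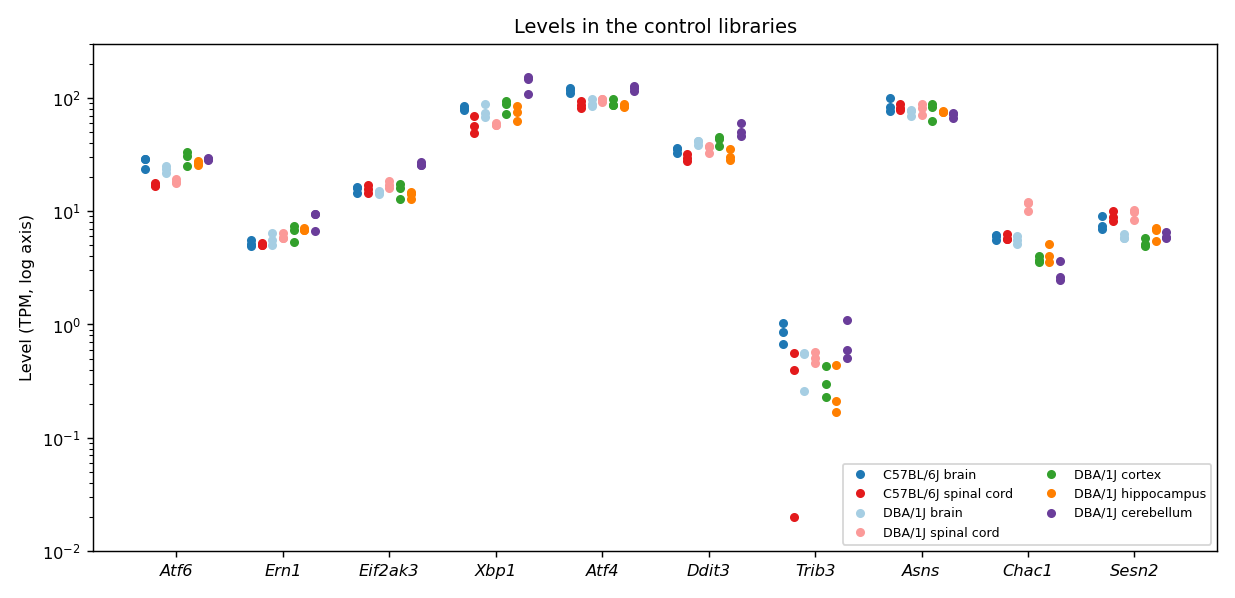
Level in TPM (log axis) of the 10 members in each control library, coloured by strain and tissue. Atf4, Xbp1 and Asns lie highest and Trib3 lowest, and in DBA/1J cerebellum Xbp1 (108 to 154 TPM) lies above its other control tissues.

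Spinal cord was compared with brain of the same control mice. In C57BL/6J, edgeR called 3 members lower in cord, beside 56.9% of all genes called in either direction. Cell type markers differ widely between these tissues, with choroid plexus at 7.11 to 8.7 CPM in cord against 359 to 511 in brain and oligodendrocytes at 22767 to 24121 against 6230 to 7259, and their part was not tested. The 3 members were *Atf6* (log2 fold change -0.63, SE 0.06, adjusted p = 1.3e-06), *Xbp1* (-0.48, SE 0.10, adjusted p = 7.1e-04) and *Atf4* (-0.41, SE 0.06, adjusted p = 4.0e-05). With the animal as a replicate block *Sesn2* passed as well, higher in cord (0.24, adjusted p = 0.02, edgeR), as it did without the low-count filter. Without C57BL/6J replicate 3 *Trib3* passed, lower in cord (-2.11, adjusted p = 0.022, edgeR), and likewise without that filter (-1.17, 0.039). In DBA/1J 5 members were called, beside 50.8% of genes. *Atf6* (-0.37) and *Xbp1* (-0.44) were again lower in cord, *Chac1* (0.98, SE 0.11, adjusted p = 6.4e-05) and *Sesn2* (0.65, SE 0.09, adjusted p = 2.0e-04) were higher, and *Ddit3* (-0.23, adjusted p = 0.031, edgeR) was lower. The *Ddit3* call was lost without any 1 of the 3 mice (edgeR adjusted p from 0.083 to 0.19), without the low-count filter (0.064) and in DESeq2 (0.079).

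Between regions of DBA/1J mice, 6 members were called for cerebellum against cortex, beside 58.1% of genes. *Eif2ak3* (0.54, SE 0.09, adjusted p = 7.0e-04), *Xbp1* (0.46, SE 0.14, adjusted p = 0.017) and *Atf4* (0.19, adjusted p = 0.046, edgeR) were higher in cerebellum. The summed choroid plexus markers were higher there too, at 1337 to 1830 CPM against 17.4 to 478 CPM in cortex. So were those of astrocytes (2173 to 2309 against 932 to 1222) and meningeal fibroblasts (109 to 113 against 48.4 to 55.3). Markers of neurons (4304 to 4716 against 5375 to 6029) and microglia (53.8 to 57.9 against 197 to 243) were lower, and those of the other cell types overlapped. The part of cell types in the member values was not tested. *Asns* (-0.39), *Chac1* (-0.61) and *Atf6* (-0.29) were lower, with edgeR adjusted p of 0.0073, 0.025 and 0.012. Without DBA/1J replicate 2, *Eif2ak3* was the 1 member called, and *Xbp1* had 0.45 (adjusted p = 0.11), *Asns* -0.37 (0.084), *Atf6* -0.21 (0.15) and *Chac1* -0.55 (0.16, edgeR). *Chac1* was also lost without replicate 3 (-0.49, adjusted p = 0.13, edgeR). *Atf4* was lost without any 1 of the 3 mice (adjusted p from 0.089 to 0.16, edgeR). With all mice kept, it was lost with the animal as a replicate block (adjusted p = 0.052, edgeR), with DESeq2 size factors (0.059) and in DESeq2 (0.066). For hippocampus against cortex *Ddit3* was called (-0.45, SE 0.11, adjusted p = 0.017, edgeR), beside 20.6% of genes (3537), and was lost without replicate 2 (-0.36, adjusted p = 0.21), when 1406 genes were called. Choroid plexus markers stood at 833 to 3388 CPM in hippocampus, above cortex, and their part was not tested. With the animal as a replicate block *Xbp1* was called as well, lower in hippocampus (-0.26, adjusted p = 0.019, edgeR). Without replicate 1 *Atf6* was (-0.29, adjusted p = 0.026, edgeR).

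The strains differed at *Chac1* in spinal cord and not detectably in brain. DBA/1J cords stood at 8.85, 7.95 and 8.59 CPM (275 to 388 counts) and C57BL/6J cords at 4.37, 4.33 and 4.61 CPM (185 to 212 counts), 1.91 times higher in DBA/1J (log2 fold change 0.93, SE 0.10, adjusted p = 1.5e-05, edgeR). The call held in all 11 alternatives. In brain DBA/1J stood at 3.97, 4.62 and 4.25 CPM and C57BL/6J at 4.3, 4.32 and 4.46 CPM (log2 fold change -0.03, SE 0.12). The mutants followed their background. *Rorb h5/h5* cords, from 3 further mice on DBA/1J, stood at 8, 8.62 and 7.25 CPM, and the 18 cords of C57BL/6J and *Rorb h1/h1* to *h4/h4* mice stood at 3.98 to 5.07 CPM, so that the 6 and the 18 did not overlap. Reads of both strains were aligned to the same build.

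The difference of the strain effect between cord and brain was tested after these values had been seen. It was 0.96 on the log2 scale for *Chac1* (SE 0.14, adjusted p = 0.0092) and 0.45 for *Atf4* (SE 0.09, adjusted p = 0.045, edgeR), the 2 members called, beside 0.321% of all genes. These 59 genes became 7 to 47 with 1 mouse left out, the fewest without C57BL/6J replicate 2, and DESeq2 called 221. With the animal as a replicate block *Chac1* held (adjusted p = 0.046) and *Atf4* did not (0.46, adjusted p = 0.066). For *Chac1* the adjusted p rose to 0.069, 0.096 and 0.057 without C57BL/6J replicate 1, 2 or 3 and to 0.061 without DBA/1J replicate 3 (edgeR), with differences of 0.94 to 0.98 in these 4. For *Atf4* it was lost without any C57BL/6J mouse and without DBA/1J replicate 1 or 3, with values from 0.42 to 0.53 and edgeR adjusted p from 0.068 to 0.27.

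*Atf4* was lower in DBA/1J than in C57BL/6J brain. DBA/1J brains stood at 72.4, 80.2 and 69 CPM, below the 3 C57BL/6J brains (log2 fold change -0.32, SE 0.07, adjusted p = 0.014, edgeR), where 11.2% of all genes and 1 of 10 members were called. The adjusted p was 0.052 without C57BL/6J replicate 1 and 0.057 without DBA/1J replicate 3. In the same brains *Sesn2* had -0.34 (adjusted p = 0.063, and 0.04 without C57BL/6J replicate 3) and *Asns* -0.20 (adjusted p = 0.12, edgeR). In cord *Atf4* stood at 78.3, 78.2 and 74.3 CPM in DBA/1J (log2 fold change 0.13, adjusted p = 0.07, edgeR), and passed at 0.045 without C57BL/6J replicate 3 or without DBA/1J replicate 3.

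*Ern1* was higher in DBA/1J cord. DBA/1J cords stood at 21.3, 20.5 and 19.1 CPM and C57BL/6J cords at 15.9, 17 and 15.9 CPM (log2 fold change 0.32, SE 0.07, adjusted p = 0.0061, edgeR), and the call held in all 11 alternatives. With *Chac1* it made 2 of 10 members called in cord, beside 21.3% of all genes, a share close to that of the background. *Rorb h5/h5* cords (18.6, 19.1 and 19 CPM) lay above all 18 cords of the C57BL/6J type (14.9 to 18). *Xbp1* did not pass between the strains, with -0.09 (SE 0.09) in brain and -0.06 (SE 0.09) in cord.

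Other genes of the ATF4 branch were read beside all genes, of which 11.2% were called between strains in brain and 21.3% in cord. Of 44 tested, 7 were lower and 0 higher in DBA/1J brain, among them *Phgdh*, which opens serine synthesis. Without C57BL/6J replicate 2 edgeR called 3, and without DBA/1J replicate 3 it called 3 lower and 2 higher. In cord 6 were lower and 3 higher, which became 6 and 6 without DBA/1J replicate 3 and 5 and 1 without C57BL/6J replicate 1. The medians were -0.10 in brain and 0.07 in cord, beside 0.01 over all genes. Of the 47 cell type markers, 1 was higher and 6 were lower in DBA/1J brain, and of 44 tested in cord 4 were higher and 8 lower, beside the same shares over all genes. The summed choroid plexus markers overlapped between the strains in brain, at 233 to 485 CPM in DBA/1J and 359 to 511 in C57BL/6J. Of 6 genes induced by glucocorticoids, 3 were higher and 1 lower in DBA/1J cord, with a summed level of 348 to 469.5 CPM against 293 to 357 in C57BL/6J. In brain 1 of the 6 was called, and the summed level was 301 to 383 CPM in DBA/1J, above the 249 to 280.3 CPM of C57BL/6J. Of 7 immediate early genes, 5 were higher in DBA/1J cord (without DBA/1J replicate 1, 3 higher and 1, *Arc*, lower), with a summed level of 76.1 to 100.5 CPM against 65.3 to 73.1 in C57BL/6J. In brain edgeR and DESeq2 called 0 of the 7, 1 had an unadjusted p under 0.05, and without DBA/1J replicate 3 edgeR called all 7. The part of these in the strain differences was not tested.

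For the other members, the 3 genes most alike within groups were as follows. Over the 66 libraries they were *Rapgef5* (r = 0.76), *Grin2a* and *Herc3* (0.75 each) for *Atf6*, *Midn* (0.74), *Tet3* (0.72) and *Kdm6b* (0.69) for *Ern1*, and *Mgat3* (0.66), *Prune2* (0.62) and *Msh6* (0.61) for *Eif2ak3*. For *Ddit3* they were *Sipa1l2* (0.65), *Pdia4* (0.62) and *Hspa5* (0.58). For *Atf4* they were *Has3* (0.61), *Mpc1-ps* and *Ranbp10* (0.54 each), for *Asns* *Rnf14* (0.76), *Mtmr7* (0.75) and *Itfg1* (0.74), and for *Sesn2* *Xrcc3* (0.71), *F2rl2* (0.62) and *Cul7* (0.56). *Chac1* had the weakest, *Gm10699* and *Spock1* (0.49 each) and *B4galnt4* (0.48), and *Trib3* was below the minimum mean of 1 CPM. The values are descriptions over libraries that share animals and depth.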

How the data were processed

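Polyadenylated RNA of 66 libraries (20 groups, 30 animals) was sequenced. The authors trimmed reads with Trim Galore, aligned them with STAR to GRCm38 and ran RSEM, and deposited per gene an expected count, an estimate of fragments, and a TPM value, scaled for length and depth. The annotation version is not given in the sources used here. Of the expected counts 5.07% were not whole, and all were rounded. Symbols came from the GENCODE mouse annotation for 41407 of 45706 identifiers, and identifiers without one took 1.52% to 12.7% of a library's counts. Positions and upstream sequences are those of RefSeq on GRCm38.p6.

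Each mutant was compared with the control of its strain in each tissue by the quasi-likelihood test of edgeR (4.0.16, R 4.3.3), after TMM scaling and filterByExpr. p-values were adjusted by Benjamini-Hochberg over all genes tested, with a threshold of 0.05, and within a tissue measure the spread between mice. Tests between tissues, and of a difference between tissues, had no term for the animal in the main fit. Libraries of one animal were taken there as independent. CPM used TMM factors within a tissue. Alternatives were DESeq2 (1.42.0), which the authors used, its size factors, no filter on low counts, a term for sex, all groups of a tissue in one fit, a block for replicate number, animal or identifier series, and leaving out each replicate. Scripts were tested on simulated data. All 10 members were named, and in each other list the 3 genes with the smallest p in either mean contrast. Other names were chosen after their values were seen. Members and lists were chosen with earlier results of these data known. Of 78 pairs of replicates 0 held identical values. Brain and cord of one number come from one animal. Across genotypes, same-numbered libraries deviated together (every r over 0.1) in 1 of 13 comparisons, *Rorb h1/h1* brain (0.11, 0.12 and 0.20), where the block changed no call of a member.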

Additional observations from a re-analysis of the deposited data

Results flagged for a closer look

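Among the 60 sets of 4 libraries (6 groups and 10 members), 3 held a library far from the other 3, and chance marks about 1 in 20. *Xbp1* in *Rorb h4/h4* cord stood at 38.9 CPM in replicate 1 and at 47.2 to 47.7 CPM in the others, a gap of 0.944 of the group's range. Without that library the log2 fold change was -0.25 (adjusted p = 0.16, edgeR). *Ddit3* in *Rorb h4/h4* brain stood at 11.2 CPM in replicate 3 and at 9.34 to 9.59 CPM in the others, a gap of 0.869 of the range. Without it the log2 fold change was -0.28 (adjusted p = 0.34, edgeR). *Atf6* in *Rorb h2/h2* cord stood at 60.1 CPM in replicate 4 and at 62.7 to 63 CPM in the others, a gap of 0.896 of a narrow range.

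The strain effect differed between spinal cord and brain for 2 members, by an interaction term in edgeR. DBA/1J exceeded C57BL/6J by 0.96 more on the log2 scale in cord than in brain for *Chac1* (SE 0.14, adjusted p = 0.0092), and by 0.45 more for *Atf4* (SE 0.09, adjusted p = 0.045), which was lower in DBA/1J brain. Both calls were lost when single mice were left out.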

How the results depend on the processing

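Depth limited *Trib3* (1 to 39 counts per library). With 3 control mice, single controls decided many *Xbp1* calls. No called value reversed in sign. Main counts of called members are those of the report. DESeq2 called 1 member in brain for each of the h1 and h2 alleles and 2 in the brain mean contrast. Without the low-count filter, 1 member was called in brain for the h1 and h2 alleles and in cord for the h1, h2 and h4 alleles, 2 between strains in brain and 5 between cord and brain of C57BL/6J. With sex as a covariate, 1 was called in *Rorb h4/h4* cord. The shares of all genes called under these alternatives are not given, so that these counts have no background beside them.

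When replicate number entered as a replicate block, 0 members were called in *Rorb h3/h3* brain (*Xbp1* -0.47, adjusted p = 0.08, edgeR), although these libraries share only a number. With the animal as a replicate block, 2 were called for hippocampus against cortex and 1 in the tissue difference of the strain effect. Neither block changed another count of called members by over 1.5 times. Over all genes the block on number moved the calls, among other shifts, from 24 to 3, 29 to 2 and 125 to 244 in brain for the h2, h3 and h4 alleles and from 50 to 89 in *Rorb h1/h1* cord.

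Leaving out each replicate gave 0 to 1 called members in *Rorb h4/h4* brain, in the cord of *Rorb h1/h1* to *h4/h4* mice and in the cord mean contrast. It gave 0 to 2 between strains in brain, for hippocampus against cortex and in the tissue difference of the strain effect, and 1 to 5 for cerebellum against cortex. The cause of these shifts was not tested.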
